A study of Homo sapiens with 4 samples.

Results

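The 75 genes described here carry the names of mitochondrial ribosomal proteins and were chosen by symbol: every row of the expression table named MRPL or MRPS followed by a number, with A, B or C allowed after it. They make up 75 of the 16811 genes in the table, with 47 in the large subunit (MRPL) and 28 in the small subunit (MRPS). All 75 had a mean value of at least 10 over the libraries and entered the test, which took in 9590 genes.

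The study edited MCF12A, a human mammary epithelial line generally described as non-tumorigenic and labelled a breast cancer cell line in the sample records, with CRISPR/Cas9 guides flanking the p2 promoter of *C1orf132*. Poly(A) RNA from 2 edited samples (knockout) and 2 wild-type samples was sequenced. All 4 cultures were the same line, grown in DMEM/F12 with horse serum, epidermal growth factor, hydrocortisone, cholera toxin and insulin. The edited cells descended from single cells sorted for GFP after transfection with guide and Cas9 plasmids, and the wild-type cells were unedited MCF12A. The sources do not say whether the 2 edited samples came from separate colonies. An effect of the deletion and a property of a colony therefore cannot be told apart, and p-values measure the spread between these samples, which may be technical. The targeted gene itself was not analysed here, so the groups rest on their labels alone.

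Mitochondria keep their own ribosome, which translates the few mRNAs of mitochondrial DNA into membrane subunits of the respiratory chain and ATP synthase. Its ribosomal RNAs are transcribed inside the organelle, whereas all of its proteins are encoded in the nucleus, made in the cytosol and imported. The small subunit binds the mRNA and decodes it, and the large subunit forms peptide bonds and sits on the inner membrane at the exit of its tunnel. Part of the proteins descend from bacterial ribosomal proteins and the rest were acquired in mitochondria.

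The deposited values were normalized by the authors by a method that the sources do not state. The steps between low values shrank with transcript length, so the values are taken here as levels per length, and the depth was estimated from the same steps. Edited replicate 2 held 1.12 times, wild-type replicate 1 0.93 times and wild-type replicate 2 1.00 times the depth of edited replicate 1, and a mitoribosomal gene rested on an estimated 172 to 14864 reads in a library (median 1194). At 172 reads, in *MRPL46*, counting error alone was 7.63%. In bulk RNA, fewer cells of a type and less RNA per cell cannot be told apart. The epithelial label was checked with 9 markers, whose summed value was 4886 and 5683 in edited cells against 10936 and 20163 in wild-type cells. *CDH1*, *TP63*, *EPCAM* and *KRT17* fell and *KRT8* rose (limma, Benjamini-Hochberg adjusted p under 0.05). Of 8 mesenchymal markers 3 were in the table, with sums of 843 and 1325 in edited cells against 280.5 and 223 in wild-type cells. *VIM* rose and *COL1A1* fell. Of 5 leukocyte markers *CD68* alone was in the table, at 32.7 to 49.1, and of 3 endothelial markers none was. The part of these marker differences in the values of the mitoribosomal genes was not tested.

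Mitoribosomal mRNAs lay higher in the edited than in the wild-type libraries for most of the genes of both subunits, but no single gene passed the test. The log2 fold change (edited minus wild-type, on log2(value + 1)) was above 0 for 72 of 75 genes, with 68 under equal library totals, 68 under quantile and 66 under cyclic loess normalization, against 56.7% of all genes tested. Its median was 0.60 for the 47 large-subunit genes, with quartiles of 0.38 and 0.80, and 0.57 for the 28 small-subunit genes, with quartiles of 0.38 and 0.72. All genes tested had a median of 0.09, which moved to -0.03 under equal library totals. Relative to that median the 75 genes stood at 0.50 as deposited, 0.50 under equal totals, 0.42 under quantile and 0.43 under cyclic loess normalization. By limma with Benjamini-Hochberg adjustment, 0 of 47 and 0 of 28 genes had an adjusted p under 0.05, where 7.09% of all genes tested did (2.89% higher and 4.2% lower in edited cells). The lowest adjusted p was 0.0728, in *MRPS23*, and 15 genes lay under 0.1. At an unadjusted p under 0.05 there were 22 large-subunit and 10 small-subunit genes, all of them higher in edited cells, beside 32.3% of all genes in either direction and 18.7% higher. These counts changed when some of the libraries were left out. In such fits 1 group held a single library, so medians are given in place of counts. With edited replicate 1 left out, the large-subunit median fell to 0.38, and with edited replicate 2 left out it rose to 0.87. Leaving out wild-type replicate 1 raised it to 0.80, and leaving out wild-type replicate 2 lowered it to 0.47. The small-subunit medians of these 4 fits were 0.32, 0.80, 0.71 and 0.46 in the same order. Those of all genes tested were 0.09, 0.09, 0.14 and 0.04.

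The groups were separate for most genes, and the libraries within a group were also apart. Both edited values exceeded both wild-type values in 39 of 47 large-subunit and 19 of 28 small-subunit genes, 77.3% of the members against 38.3% of all genes tested. In no member did both edited values lie under both wild-type values, an arrangement found in 26.9% of all genes. The groups overlapped for *MRPL10*, *MRPL13*, *MRPL32*, *MRPL49*, *MRPL50*, *MRPL52*, *MRPL55* and *MRPL57* and for *MRPS2*, *MRPS18A*, *MRPS18C*, *MRPS22*, *MRPS24*, *MRPS30*, *MRPS31*, *MRPS33* and *MRPS35*. With 2 libraries a group, an exact permutation test of a single value cannot go below p = 0.333.

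The median large-subunit gene was at 146 and 102 in the edited pair (replicate 1 first) and 84.7 and 67.0 in the wild-type pair. For the small subunit the medians were 108, 88.3, 78.8 and 59.0 in the same order. Edited replicate 1 was the highest and wild-type replicate 2 the lowest library in both subunits. The full order from edited replicate 1 through edited replicate 2 and wild-type replicate 1 to wild-type replicate 2 held in 37 large-subunit and 17 small-subunit genes, beside 21.3% of all genes tested. Edited replicate 1 exceeded edited replicate 2 in 73 of 75 genes by a median of 0.45 on the log2 scale, where 53.4% of all genes did and their median was 0.03. Wild-type replicate 1 exceeded wild-type replicate 2 in 71 genes by a median of 0.36, where 64.0% of all genes did and their median was 0.11. The members thus differed within each group by an amount of the same order as between the groups. Between the closest libraries, edited replicate 2 and wild-type replicate 1, the median difference was 0.20, and between the farthest, edited replicate 1 and wild-type replicate 2, it was 0.96.

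**Figure D1:**
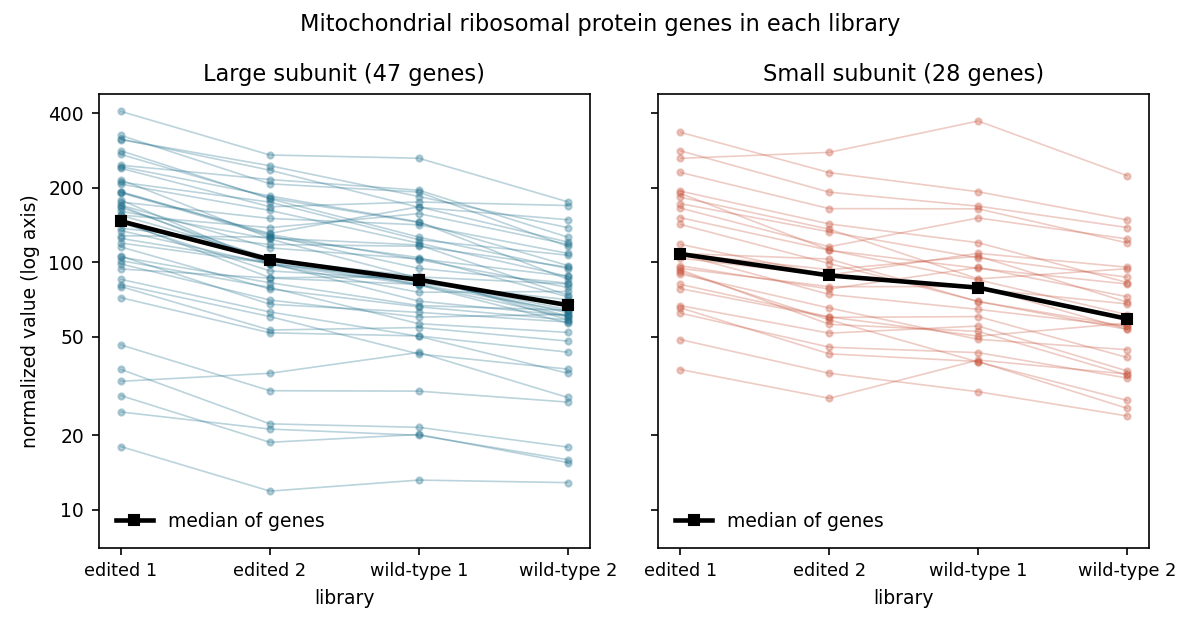
Normalized value (log axis) of each mitoribosomal gene in the 4 libraries, with the large subunit (47 genes) and the small subunit (28 genes) in separate panels; each thin line joins the values of 1 gene and the thick line joins the medians. The large-subunit medians are 146, 102, 84.7 and 67.0 and the small-subunit medians 108, 88.3, 78.8 and 59.0, with edited replicate 1 highest and wild-type replicate 2 lowest.

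Summed over genes, the large subunit reached 7374 and 5318 in edited cells against 4577 and 3536 in wild-type cells, a mean of 6346 ± 1453 (SD, n = 2) against 4056 ± 736 (SD, n = 2), or 1.56-fold. The small subunit summed to 3755 and 2818 in edited cells against 2664 and 2040.2 in wild-type cells, 3286 ± 662 against 2352 ± 441 (SD, n = 2 each), or 1.397-fold. The ratio of the large to the small sum was 1.96 and 1.89 in edited cells against 1.72 and 1.73 in wild-type cells, so it did not overlap between the groups, although an exact permutation test of 2 against 2 libraries cannot go below p = 0.333. Symbols and subunits do not match throughout, since the products of *MRPS18A* and *MRPS30* are found in the large subunit and that of *MRPS36* is now known as part of the oxoglutarate dehydrogenase complex. Sorted by structure instead, the medians of the log2 fold change were 0.59 for 49 large-subunit and 0.58 for 25 small-subunit genes.

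Promoters of the genes were searched for sites of factors known for nuclear genes of mitochondrial proteins. RefSeq (GRCh38.p14) gave 66 of the 75 genes a promoter, of which the 250 bases before the start were searched on both strands for 4 motifs. The letters CCGGAAG, a core site of ETS factors such as GABPA, a regulator of nuclear genes for mitochondrial proteins, stood in 22 of the 66 promoters (33.3%) and in 8.82% of 27305 promoters of the same length. The palindromic site of NRF1, the nuclear respiratory factor, stood in 7 (10.6%) and in 5.53% of all promoters. AAGATGGC, the core of YY1 sites, was found in 5 (7.58%) and in 1.37% of all, and the E-box CACGTG, read by MYC and related factors, in 5 (7.58%) and in 6.49%. The 27305 promoters were not limited to the genes tested here, as the 66 were, so these shares do not compare like genes. The ETS and YY1 letters can share AAG, so that a stretch may count for both. The median log2 fold change was 0.61 for the 22 genes with the ETS letters and 0.55 for those without. For the YY1 letters it was 0.69 with and 0.56 without. The order was the other way for NRF1 (0.46 with, 0.59 without) and the E-box (0.45 with, 0.58 without). These medians are a description with no test, and genes without a promoter enter none of them. Printed here, 5′ to 3′ on the strand of the gene, are the promoters with the highest and the lowest log2 fold change of each subunit among those that overlap no other gene, with matches on either strand in capitals. They lie at chr1:1407294-1407543 (minus strand, *MRPL20*), chr14:22829637-22829886 (plus strand, *MRPL52*), chr17:57850045-57850294 (minus strand, *MRPS23*) and chr13:40771191-40771440 (minus strand, *MRPS31*).
MRPL20: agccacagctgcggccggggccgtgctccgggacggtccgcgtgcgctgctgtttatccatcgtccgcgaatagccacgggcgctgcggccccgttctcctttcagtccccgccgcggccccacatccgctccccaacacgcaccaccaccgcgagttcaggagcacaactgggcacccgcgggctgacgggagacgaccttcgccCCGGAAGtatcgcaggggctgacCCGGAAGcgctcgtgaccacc
MRPL52: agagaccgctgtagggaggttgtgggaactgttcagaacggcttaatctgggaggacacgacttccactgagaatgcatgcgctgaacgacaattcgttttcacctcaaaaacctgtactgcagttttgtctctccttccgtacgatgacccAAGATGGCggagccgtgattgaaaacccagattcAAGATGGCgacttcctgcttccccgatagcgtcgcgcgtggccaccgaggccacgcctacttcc
MRPS23: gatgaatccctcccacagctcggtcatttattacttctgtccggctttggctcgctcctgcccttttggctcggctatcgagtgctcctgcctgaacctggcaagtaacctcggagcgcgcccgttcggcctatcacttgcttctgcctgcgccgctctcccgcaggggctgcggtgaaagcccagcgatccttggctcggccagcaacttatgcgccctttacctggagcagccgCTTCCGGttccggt
MRPS31: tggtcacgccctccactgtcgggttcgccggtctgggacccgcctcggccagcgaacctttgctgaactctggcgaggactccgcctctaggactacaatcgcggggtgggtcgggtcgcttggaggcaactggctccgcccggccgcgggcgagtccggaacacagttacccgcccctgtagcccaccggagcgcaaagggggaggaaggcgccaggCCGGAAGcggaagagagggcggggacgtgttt
*MRPL20* and *MRPS23*, among the highest genes, and *MRPS31*, the lowest, hold the ETS letters (capitals, 2, 1 and 1 matches). *MRPL52*, the lowest large-subunit gene among those printed, holds 2 matches to the YY1 letters and none to the ETS letters. The part of these sites in the values was not tested.

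Among the large-subunit genes, *MRPL20*, whose bacterial homologue binds ribosomal RNA early in assembly, had the largest log2 fold change. It was at 282 and 180.2 in edited cells (replicate 1 first) against 126 and 94.1 in wild-type cells. The difference was 1.04 (SE 0.29, limma adjusted p = 0.0834). *MRPL2*, a core protein close to the peptidyl transferase centre, was at 161 and 124 in edited cells against 86.1 and 60.6 in wild-type cells, a difference of 0.96 (SE 0.26, adjusted p = 0.0771). Both genes had edited libraries clear of the wild-type ones, with wild-type replicate 2 the lowest. *MRPL15*, another protein with a bacterial homologue, was at 243 and 185 against 145 and 85.2, a difference of 0.92 (SE 0.31, adjusted p = 0.114). *MRPL12*, the stalk protein that contacts translation factors and has also been found bound to mitochondrial RNA polymerase, was at 169 and 98.0 against 80.8 and 56.8, a difference of 0.92 (SE 0.33, adjusted p = 0.126). In *MRPL12* the gap between the edited replicates was wider than that between edited replicate 2 and wild-type replicate 1.

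At the low end of the large subunit the groups overlapped in every gene named. *MRPL10*, which anchors *MRPL12* at the stalk base, was at 33.0 and 35.5 in edited cells against 43.1 and 28.4 in wild-type cells, a difference of -0.03 (SE 0.24, limma adjusted p = 0.939). Its wild-type values enclosed its edited values. *MRPL32*, which is cleaved by the m-AAA protease before it joins the subunit, was at 155 and 138 against 157 and 118, a difference of 0.10 (adjusted p = 0.786) that turned to -0.018, -0.036 and -0.11 under equal totals, quantile and cyclic loess normalization. *MRPL52*, a protein without a bacterial homologue, was at 191 and 131 against 167 and 120.5, a difference of 0.15 (adjusted p = 0.738) that turned to -0.068 under cyclic loess. *MRPL50*, also without one and the lowest of the large subunit in wild-type cells, was at 18.0 and 11.9 against 13.1 and 12.8, a difference of 0.16 (adjusted p = 0.702). For *MRPL50* and *MRPL52*, edited replicate 2 was the library inside or below the wild-type range.

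The most abundant large-subunit mRNAs of wild-type cells were *MRPL3*, *MRPL13* and *MRPL51*. *MRPL3*, a core protein with a bacterial homologue, was at 406 and 271 in edited cells against 263 and 175 in wild-type cells, a difference of 0.63 (limma adjusted p = 0.222). *MRPL51*, a protein without a bacterial homologue, was at 312 and 245 against 184 and 138, a difference of 0.79 (adjusted p = 0.0977). *MRPL13* was at 239 and 167 against 175 and 169, a difference of 0.22 (adjusted p = 0.568), which was -0.039 under cyclic loess. *MRPL3* was the highest of the 3 in each library, and *MRPL51* exceeded *MRPL13* in all but wild-type replicate 2. Among the lowest, *MRPL57* was at 28.8 and 18.7 against 20.1 and 15.5, a difference of 0.38 (adjusted p = 0.368), and *MRPL44*, which carries a ribonuclease III fold, was at 24.8 and 21.1 against 19.9 and 15.9, a difference of 0.34 (adjusted p = 0.289). Edited replicate 2 lay within the wild-type range in *MRPL57* and above it in *MRPL44*.

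In the small subunit, *MRPS23* had the largest log2 fold change of all 75 genes. This protein has no bacterial homologue. Its mRNA was at 91.4 and 58.4 in edited cells (replicate 1 first) against 39.5 and 27.6 in wild-type cells, a difference of 1.12 (SE 0.29, limma adjusted p = 0.0728). *MRPS12*, the homologue of the bacterial decoding-site protein whose variants give streptomycin resistance, was at 189 and 112 against 84.8 and 61.3, a difference of 1.00 (SE 0.32, adjusted p = 0.1004). *MRPS36* was at 142 and 98.7 against 69.3 and 54.95, a difference of 0.93 (SE 0.25, adjusted p = 0.0794). In all of these, edited replicate 1 was the highest and wild-type replicate 2 the lowest library. *MRPS25* departed from that order within the wild-type group, with 183 and 136 in edited cells against 85.5 and 94.0 in wild-type cells, a difference of 0.81 (SE 0.22, adjusted p = 0.0815).

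The lowest small-subunit genes showed differences near or below 0. *MRPS31* was at 36.8 and 28.1 in edited cells against 40.2 and 35.3 in wild-type cells, a difference of -0.22 (SE 0.20, limma adjusted p = 0.486) that was below 0 in every alternative run. *MRPS24*, the homologue of a bacterial protein at the mRNA entry, was at 262 and 278 against 372 and 223, a difference of -0.09 (adjusted p = 0.849). Wild-type replicate 1 stood above the other 3 libraries in *MRPS24*, and without it the difference was 0.27. *MRPS22* was at 118 and 88.6 against 108 and 95.4 and *MRPS33* at 165 and 115 against 151 and 124, with differences of 0.01 in both (adjusted p = 0.984 and 0.976) that were below 0 under equal totals, quantile and cyclic loess normalization. In both genes the edited values enclosed the wild-type values. Mutations of *MRPS22* are known from inherited deficiency of the respiratory chain.

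By level, *MRPS24*, *MRPS16* and *MRPS34* were the highest small-subunit genes of wild-type cells. *MRPS16*, with a bacterial homologue, was at 335 and 229.9 in edited cells against 192 and 148 in wild-type cells, a difference of 0.71 (limma adjusted p = 0.142). *MRPS34*, found mutated in Leigh syndrome, was at 282 and 192 against 168 and 138, a difference of 0.61 (adjusted p = 0.179). *MRPS24* thus held the top place in wild-type replicates 1 and 2, and *MRPS16* and *MRPS34* exceeded it in edited replicate 1. The lowest in wild-type cells, beside *MRPS23*, were *MRPS10*, at 48.6 and 35.5 against 29.9 and 23.9, a difference of 0.62 (adjusted p = 0.132), and *MRPS26*, at 65.3 and 42.6 against 39.6 and 25.6, a difference of 0.71 (adjusted p = 0.173). Their groups did not overlap.

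**Figure D2:**
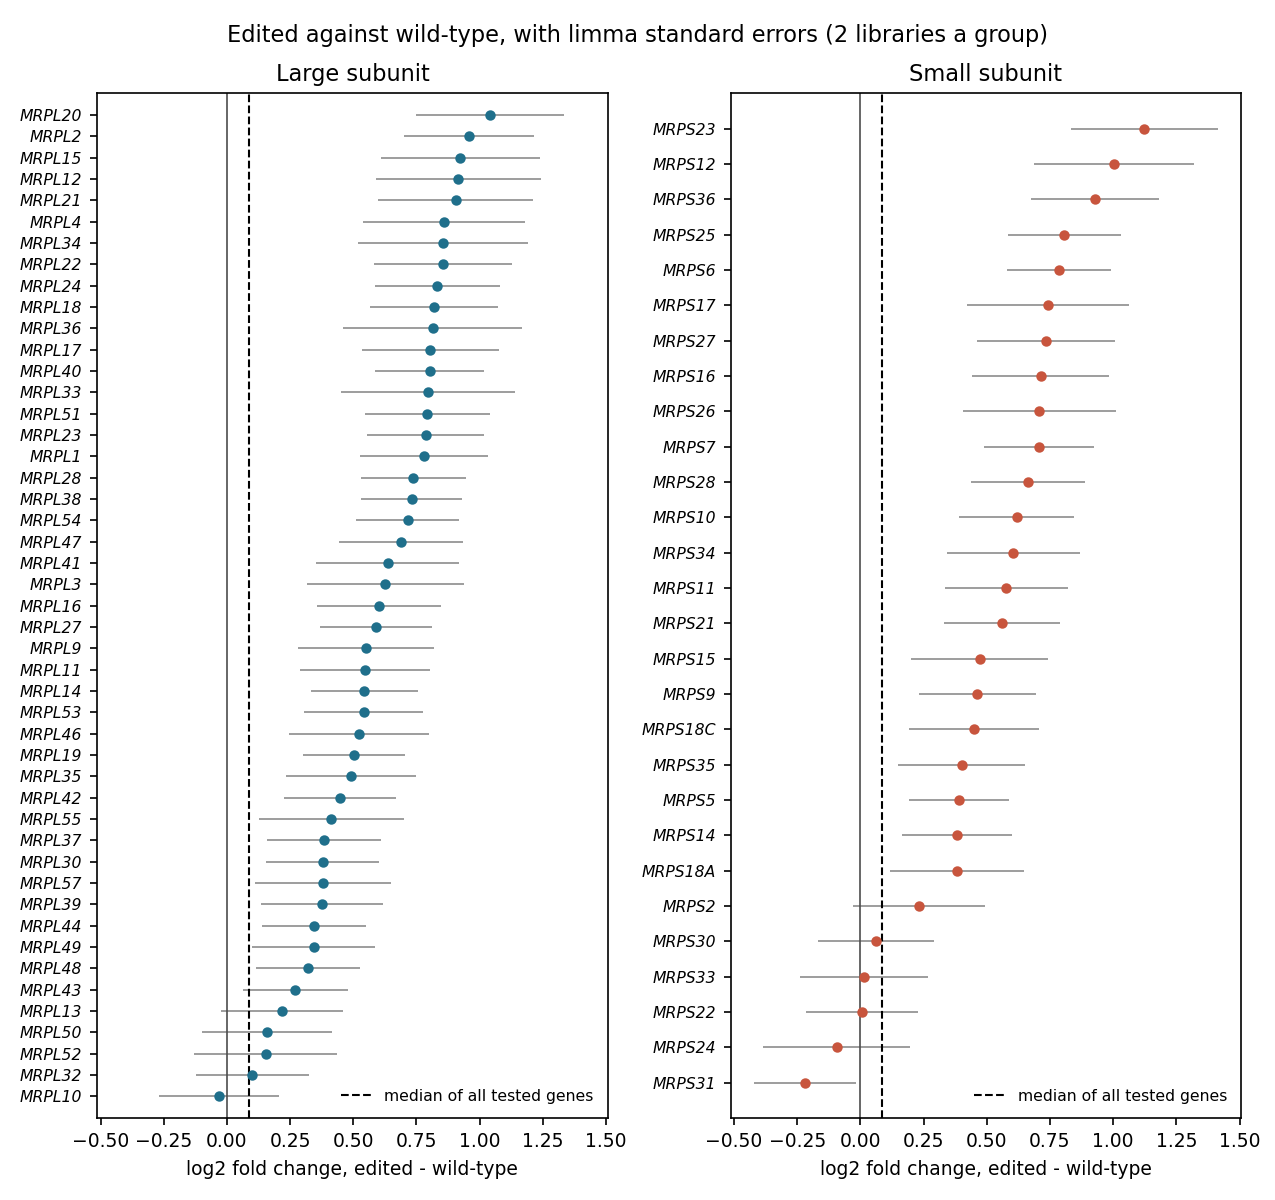
Log2 fold change (edited minus wild-type, limma, bars are ± 1 SE) of each of the 75 genes, ordered within the large and the small subunit, with a line at the median of all genes tested (0.09). The large-subunit genes range from -0.03 (*MRPL10*) to 1.04 (*MRPL20*) and the small-subunit genes from -0.22 (*MRPS31*) to 1.12 (*MRPS23*).

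Grouped by descent, the 30 large-subunit genes with a bacterial homologue had a median log2 fold change of 0.76, and in 26 of them both edited values exceeded both wild-type values, beside 38.3% of all genes tested. The 17 large-subunit genes without one had a median of 0.38 and ranged from 0.15 to 0.80, with 13 separate. In the small subunit the medians were 0.56 for 17 genes with and 0.61 for 11 genes without a bacterial homologue. The gap between the large-subunit medians was not seen in the small subunit, and neither was tested.

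By place in the ribosome, 4 places were compared. The proteins around the exit tunnel (*MRPL17*, *MRPL22*, *MRPL23*, *MRPL24* and *MRPL47*) were the most alike of the 4, at 0.69 to 0.85. Their median log2 fold change was 0.81, and the groups overlapped in none of the 5. All 5 have a bacterial homologue, so place and descent cannot be told apart in them. The central protuberance genes listed here (*MRPL18*, *MRPL38*, *MRPL40*, *MRPL46* and *MRPL48*) had a median of 0.73, from 0.32 to 0.82. The groups overlapped in none of these 5 either. In the stalk (*MRPL10*, *MRPL11*, *MRPL12*, *MRPL53* and *MRPL54*) the median was 0.55 and the range ran from -0.03 to 0.92. The head of the small subunit (*MRPS7*, *MRPS9*, *MRPS10*, *MRPS14*, *MRPS24*, *MRPS31*, *MRPS33* and *MRPS35*) had a median of 0.39, from -0.22 to 0.71, and its groups were separate in 4 of 8 genes, beside 38.3% of all genes tested. Within the stalk, *MRPL10* (-0.03) and *MRPL12* (0.92), whose products bind each other, stood far apart.

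The members lie on 21 chromosomes, and their log2 fold changes went with those of the genes around them. For each, the median log2 fold change was taken over the other tested genes within 10 Mb (RefSeq positions, GRCh38.p14). Pearson's r between gene and neighbours was 0.61 and Spearman's rho 0.58 over the 75 genes, a description of genes that share the same 4 libraries. The neighbours' median was below 0 for 21 genes, which had a median of 0.23, and at or above 0 for 54 genes, which had a median of 0.71. All 10 of the lowest genes and 0 of the 10 highest had neighbours below 0. *MRPL52* on chromosome 14 had neighbours at -0.48, *MRPS33* on chromosome 7 at -0.37, *MRPS30* on chromosome 5 at -0.32, *MRPL50* on chromosome 9 at -0.30 and *MRPS22* on chromosome 3 at -0.29. The genes nevertheless stood above their surroundings in 73 of 75 cases, by a median of 0.48, the exceptions being *MRPL10* and *MRPS31*, which differed from theirs by -0.02 and -0.01. *MRPL47* and *MRPL3*, both on chromosome 3 with neighbours at -0.28 and -0.27, had log2 fold changes of 0.69 and 0.63. Taken relative to the neighbours, the medians by descent were 0.60 and 0.46 in the large and 0.48 and 0.38 in the small subunit. Copy number was not measured, and its part in these values was not tested.

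**Figure D3:**
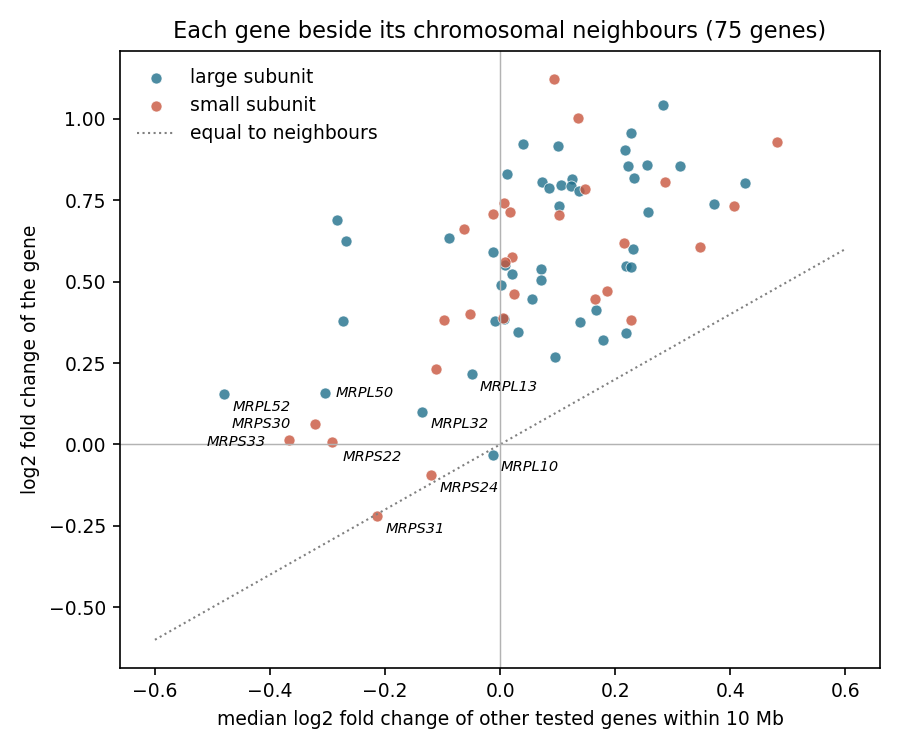
Log2 fold change of each of the 75 genes (vertical) against the median log2 fold change of the other tested genes within 10 Mb (horizontal), with a dotted line of equality; blue points are large-subunit and red points small-subunit genes. The 10 lowest genes, which are named, all have neighbours below 0, and 73 of 75 genes lie above the line.

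Mitoribosomal mRNAs are short, with a median transcript of 1224 bases against 3108 for tested genes of known length, and length went with the values. Tested genes split by length into 4 equal classes had median log2 fold changes of 0.26, 0.10, 0.05 and -0.06 from the shortest to the longest class. The 25 members of up to 1 kb had a median of 0.71 and the 50 longer members 0.53, so that both groups stood above the shortest class. That class also differed within the groups, by a median of 0.14 between edited replicates 1 and 2 and of 0.24 between wild-type replicates 1 and 2, beside 0.45 and 0.36 for the members. The part of transcript length in the result was not tested. For 40 of the 75 genes RefSeq names at least 1 pseudogene, which may share reads; their median was 0.55 and that of the other 35 was 0.66. The span of 15 genes overlaps that of another protein-coding gene, and without strand their reads cannot be told apart where exons meet. *MRPL2* (with *KLC4*), *MRPS25* (with *NR2C2*) and *MRPS34* (with *EME2*) are among them.

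The other genes of mitochondrial translation are counted here together with those of mitochondrial transcription and biogenesis. Of these, 6 of 71 tested rose and 0 fell (limma, adjusted p under 0.05, beside 2.89% and 4.2% of all genes). Without the filter on low values, 2 of 80 rose and *PPARGC1A* fell. Each of the 6 genes had edited values clear of the wild-type values, which adds nothing to calls made on the same 4 libraries. The 6 mitoribosomal proteins known by other symbols (*AURKAIP1*, *CHCHD1*, *DAP3*, *GADD45GIP1*, *ICT1* and *PTCD3*) had log2 fold changes of 0.43 to 1.01 with a median of 0.69, none of which passed. Both edited values exceeded both wild-type values in all 6, beside 38.3% of all genes tested. *ICT1*, also known as *MRPL58*, is a peptidyl-tRNA hydrolase built into the large subunit. It was at 56.0 and 41.5 against 34.1 and 24.1.

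Among 23 genes of mitoribosome assembly and ribosomal RNA maturation, with a median of 0.50, 2 rose. *MTG1*, a GTPase of large-subunit assembly, was at 82.4 and 76.1 in edited cells against 35.5 and 34.2 in wild-type cells, a difference of 1.16 (SE 0.17, limma adjusted p = 0.0251). *DHX30*, an RNA helicase of the mitochondrial RNA granules, was at 69.5 and 54.7 against 31.3 and 30.5, a difference of 0.97 (SE 0.19, adjusted p = 0.0452). The edited replicates of both genes lay closer together than the median gap of the mitoribosomal genes. Of 18 genes that charge mitochondrial tRNAs, with a median of 0.50, 2 rose: *LARS2*, the leucyl-tRNA synthetase, from 13.9 and 16.7 to 41.9 and 29.9 (1.16, adjusted p = 0.0459), and *GATB*, a subunit of the amidotransferase that makes glutaminyl-tRNA, from 27.0 and 24.2 to 45.8 and 44.9 (0.80, adjusted p = 0.0492). Below 0 were 2 of the 18, *VARS2* at -0.82 (limma adjusted p = 0.0788) and *TARS2* at -0.01 (adjusted p = 0.976). The 14 translation factors had a median of 0.27 and none passed.

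Of 10 tested genes of mitochondrial transcription and biogenesis, with a median of 0.47, 2 rose. *PPRC1*, a coactivator of the PGC-1 family, was at 76.5 and 75.9 in edited cells against 40.3 and 33.6 in wild-type cells, a difference of 1.03 (limma adjusted p = 0.0382). *TFB2M*, which opens the promoters of mitochondrial DNA with the polymerase, was at 44.1 and 37.3 against 18.3 and 10.96, a difference of 1.45 (adjusted p = 0.0420). The polymerase gene *POLRMT* (0.78, adjusted p = 0.0670) and *TFAM*, which packages mitochondrial DNA (0.77, adjusted p = 0.0679), were just outside the threshold, and *MYC* was at 0.26 (adjusted p = 0.537). Of the 10 genes, 3 lay below 0, *YY1* at -0.33, *MTERF1* at -0.32 and *ESRRA* at -0.17 (limma adjusted p = 0.249, 0.311 and 0.648). In *YY1* and *MTERF1* both edited values lay under both wild-type values, as in 26.9% of all genes tested. *PPARGC1A*, which encodes the coactivator PGC-1 alpha, had a mean under 10 and was not among the 10. It was at 0.635 and 0.567 in edited cells against 7.72 and 6.47 in wild-type cells and fell in the fit over all genes (-2.33, limma adjusted p = 0.0182). The count of 6 depended on single libraries: it was 0 without edited replicate 1, wild-type replicate 1 or wild-type replicate 2, and 12 without edited replicate 2. Under equal library totals or cyclic loess normalization *MTG1*, *PPRC1* and *TFB2M* remained.

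Further sets were read beside the mitoribosomal genes, one made with them and one made apart. The 76 nuclear-encoded subunits of oxidative phosphorylation, which assemble with the products of the mitochondrial ribosome, had a median log2 fold change of 0.59, where the 75 mitoribosomal genes also had 0.59. The medians of both sets were also close under equal totals (0.47 and 0.47) but were 0.37 and 0.46 under quantile and 0.31 and 0.42 under cyclic loess normalization. Edited values exceeded wild-type values in 67 of the 76, beside 38.3% of all genes tested, and 0 passed the test, beside 2.89% higher and 4.2% lower. Their replicates differed by medians of 0.40 in the edited and 0.20 in the wild-type group. The 82 tested genes of the cytosolic ribosome had a median of -0.02, and edited values exceeded wild-type values in 11, again beside 38.3%. Of the 82, *RPL26L1* rose (1.45, limma adjusted p = 0.0403). Between edited replicates 1 and 2 the cytosolic set stood at -0.09, where the mitoribosomal genes stood at 0.45, and between wild-type replicates 1 and 2 at 0.29, where they stood at 0.36. The gap between the edited libraries was thus not shared by both ribosomes, whereas that between the wild-type libraries ran the same way. The same 4 libraries underlie these sets, and no difference between them was tested.

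**Figure D4:**
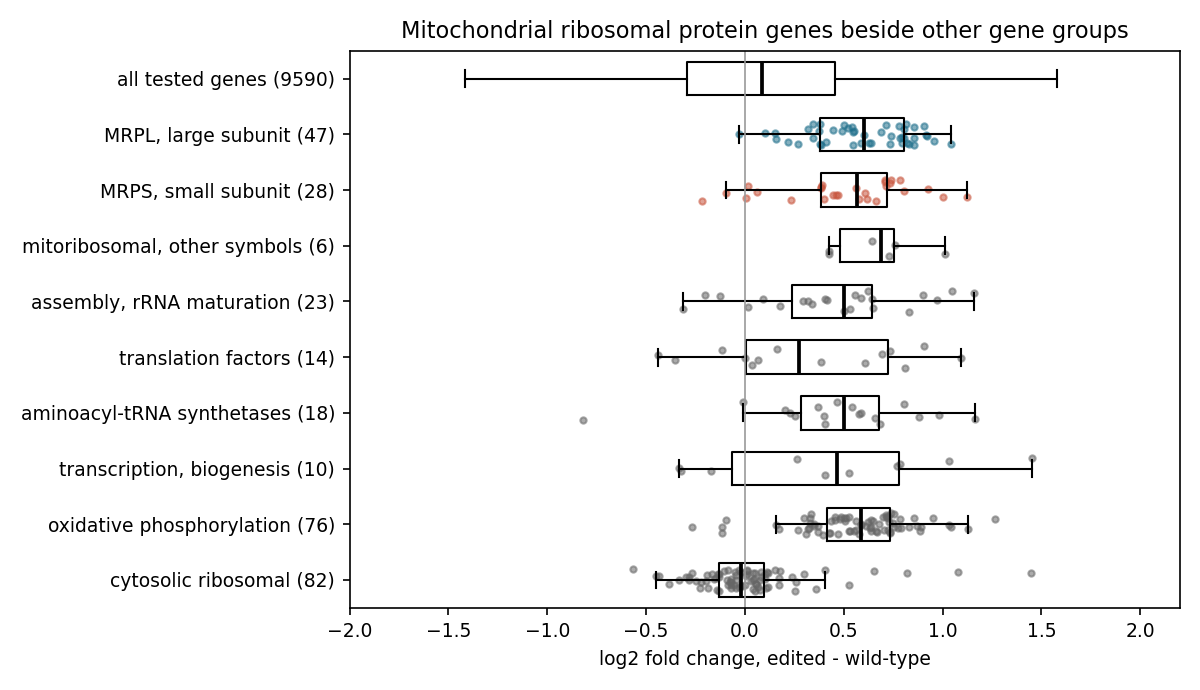
Log2 fold change (edited minus wild-type) of each tested gene in the mitoribosomal subunits, the other groups of mitochondrial translation, the nuclear-encoded subunits of oxidative phosphorylation and the cytosolic ribosome; each point is 1 gene, boxes give the median and quartiles with Tukey whiskers, and for all genes tested the box alone is drawn. The medians are 0.60 and 0.57 for the mitoribosomal subunits, 0.59 for oxidative phosphorylation and -0.02 for the cytosolic ribosome.

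Among the mRNAs that the mitochondrial ribosome translates, *MT-CYB* (-0.15) and *MT-ND6* (-0.11) had log2 fold changes below 0 and all others above it. The 13 mRNAs of mitochondrial DNA had log2 fold changes between -0.15 and 0.23 and none passed the test. They took 10.9% (replicate 1) and 8.07% of the summed value of edited cells and 7.95% (replicate 1) and 10.9% of that of wild-type cells. The highest shares were thus those of edited replicate 1 and wild-type replicate 2, the libraries in which the mitoribosomal genes were highest and lowest.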

How the data were processed

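Poly(A) libraries were made with an Illumina TruSeq kit that does not mark strand and read single-end. The deposited table holds 1 signal value per gene and library, normalized between libraries by the authors with a method not given in the sources used here. The submitters' processing notes name Salmon, HISAT2 and hg38, without versions or roles. Values are neither whole nor equal in total, so a count test was not used. In low genes with 1 annotated transcript, 219 of 975 were whole multiples (within 0.01 read) of a step near 0.103 per kb in edited replicate 1, from which relative depth and reads were estimated.

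Values were taken as log2(value + 1), and genes with a mean of at least 10 over the 4 libraries were compared (edited minus wild-type) with limma 3.58.1 in R 4.3.3, using a variance trend and Benjamini-Hochberg adjustment over all 9590 genes, at adjusted p under 0.05. The fit was tested on simulated data, drawn independently for each gene. Such data do not hold the replicate differences that many genes share here, so the fit was not tested under them. Genes given with each library's value were, in each subunit, the 4 largest and the 4 smallest log2 fold changes and the 3 highest and the 3 lowest in wild-type cells, and for other lists those past the threshold. Members, lists and tests were chosen with earlier results of these data known. Other pseudocounts, filters, scalings, a replicate block, no variance trend, a threshold of 0.001, another subunit assignment and leaving out each library were tried. The labels number replicates 1 and 2 in both groups but name no shared batch. Positions, pseudogenes and promoters come from RefSeq (GRCh38.p14), transcript lengths from GENCODE. *MRPL45* and *MRPS18B* were not analysed here.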

Additional observations from a re-analysis of the deposited data

How the results depend on the processing

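No mitoribosomal gene passed the threshold under the other pseudocounts, filters, scalings, variance model, subunit assignment or replicate block. Leaving out 1 library gave 0 to 10 calls in the large and 0 to 5 in the small subunit, the highest counts without edited replicate 2. Their medians stayed above 0, at 0.38 to 0.87 for the large and 0.32 to 0.80 for the small subunit when 1 library was left out, and at 0.45 to 0.69 and 0.37 to 0.58 otherwise. Under equal totals the edited values exceeded the wild-type values in 52 of 75 members and in 31.7% of all genes. Of all genes, 680 were called, against 419 with a mean of at least 50 (fewer genes tested), 1 at an adjusted p under 0.001 and 4 to 1431 with 1 library left out (424 without edited replicate 1, 1431 without edited replicate 2, and, without the first or the second wild-type library, 47 and 4).

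The replicate block gave 133 calls over all genes (26 higher and 107 lower) and 0 in the other genes of mitochondrial translation. The replicate differences of the groups correlated at -0.138 across genes, which cannot show whether libraries of the same number shared a batch. With the block, 28 large-subunit and 17 small-subunit genes had an unadjusted limma p under 0.05, in place of 22 and 10. Over all genes 2944 of 9590 did, in either direction, in place of 3095. A crossed pairing, chosen after seeing the data, gave 1002 calls. In place of 6 calls among the other genes of mitochondrial translation there were 3 without a filter (2 of the 6, and *PPARGC1A*, which was lower), 3 with a mean of at least 50 (2 of the 6, the only ones tested, and *MTG2*), 3 of the 6 under equal totals, cyclic loess and without the variance trend, 0 at 0.001, and 0 to 12 with 1 library left out. The cause was not tested.

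Log2 fold changes near 0 changed sign. Under equal totals, quantile and cyclic loess scaling *MRPL32* was at -0.018, -0.036 and -0.11, *MRPS22* at -0.11, -0.13 and -0.17, and *MRPS33* at -0.11, -0.13 and -0.20. Under cyclic loess *MRPL52* was at -0.068 and *MRPL13* at -0.039. With 1 library left out the ranges were -0.33 to 0.26 (*MRPL10*), -0.10 to 0.31 (*MRPL32*), -0.12 to 0.43 (*MRPL52*), -0.12 to 0.44 (*MRPL50*), -0.040 to 0.47 (*MRPL13*), -0.46 to 0.27 (*MRPS24*), -0.20 to 0.21 (*MRPS22*) and -0.24 to 0.27 (*MRPS33*). With 1 library left in a group, that library is assumed to vary like the other group. The depth gives members an estimated counting error of at most 7.63%. In *MRPL27* and *MRPL50* the wild-type replicates differed by less than the counting error of their own reads.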
